A study of Mus musculus with 12 samples.

Results

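Integrins are cell surface receptors made of 1 alpha and 1 beta chain, and a chain reaches the surface only with a partner. The beta7 chain pairs with alphaE (CD103), which binds E-cadherin on epithelium, or with alpha4, which binds MAdCAM-1 on mucosal vessels, whereas the beta1 chain pairs with many alpha chains to form the very late antigen (VLA) receptors for VCAM-1, fibronectin, collagens and laminins. RNA-seq and ATAC-seq data for 10 such chains, *Itgae*, *Itgb7*, *Itga4*, *Itgb1*, *Itga1*, *Itga2*, *Itga5*, *Itga6*, *Itgav* and *Itgb3*, were taken by gene symbol from 25860 listed genes, and each alpha chain was compared with its beta partner. All 10 were listed, and 9 passed the filter on low values, with *Itga1* left out. For accessibility, 35 of 23932 listed peaks carried the name of 1 of these genes.

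The cells were CD8+ T_prog_ cells, stem-like progenitors sorted from the pancreatic lymph node of female nonobese diabetic (NOD) mice. Each assay had 3 libraries of each genotype, from mice of that genotype, and the ATAC-seq methods call them biological replicates. Both genotypes carried the NY8.3 T cell receptor transgene, which recognises the β cell antigen IGRP. *NOD-TCR 8.3 UTX TCD* mice lacked the histone demethylase UTX, encoded by *Kdm6a*, in T cells through *UTX fl/fl* and *Lck-Cre*, which is active from the thymus onward, and *NOD-TCR 8.3 WT* mice were the UTX-sufficient controls. The floxed allele had been backcrossed from B6 to NOD mice. The age of the mice behind these libraries was not given in the sources used here, although the study states one for mice of these lines in its transfer experiment. The p-values refer to the spread between these samples, and those from limma also draw on the spread of all genes tested. Sorting was for Ly108+ cells that lacked CXCR6 by the sample labels, or CD39 by the methods of the study.

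RNA libraries held 146.5, 144.5 and 193.6 M counted reads (WT) or 61.5, 175.5 and 187.3 M (UTX TCD), with UTX TCD replicate 1 the shallowest. *Kdm6a*, at chrX:18160862-18279936 of the GRCm38 (mm10) build, had normalized counts of 28365, 28949 and 29172 in WT and 24158, 24792 and 24579 in UTX TCD libraries. The UTX TCD libraries were lower without overlap, at -0.23 on the log2 scale (SE 0.04, limma adjusted p = 0.00114). These counts cover the whole gene and not the floxed part, so they do not check the deletion. Among the 6 CD8 T cell markers, led by *Cd8a*, 0 were called by limma, although 4 had an adjusted p under 0.05, 1 of them higher and 3 lower in UTX TCD cells. Of all genes tested, 17.6% were called and 40.7% had such an adjusted p. *Cd8a* was counted at 272155 ± 2012 (WT) against 298501 ± 23849 (UTX TCD, SD, n = 3 each), and *Tcf7*, the gene of the progenitor factor TCF1, at 235632 ± 8264 (WT) against 224012 ± 4856 (UTX TCD, SD, n = 3 each).

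Of the 9 chains tested, *Itgae*, *Itga4*, *Itga2* and *Itga6* were called lower in UTX TCD cells, where 7.05% of all 14459 genes tested were called lower. *Itgb3* was called higher, where 10.5% of genes tested were. In either direction this made 5 of 9 chains against 17.6% of genes. A call needed a Benjamini-Hochberg adjusted p under 0.05 over all genes tested together with a log2 fold change above 0.5 or below -0.5, given as UTX TCD over WT on log2(normalized count + 1), which understates the change of low genes. With the adjusted p alone, *Itgb7* joined them, making 6 of 9 chains against 40.7% of genes. The libraries of the genotypes did not overlap for the same 6 chains, against 51.9% of all genes tested. All 4 chains called lower were alpha chains. The median log2 fold change was -0.4 over the 9 chains and 0 over all genes tested.

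*Itgae*, the alphaE chain, lies on chromosome 11 from 73090505 to 73147449. Its normalized counts were 61194, 65163 and 64576 in WT and 14859, 15948 and 14710 in UTX TCD libraries. Every UTX TCD library was far below every WT library, and the UTX TCD mean was 23.8% of the WT mean. The log2 fold change was -2.07 (SE 0.05, limma adjusted p = 1.88e-08), and 171 of the genes tested had a lower one. In these bulk libraries, fewer cells with the transcript and less of it per cell cannot be told apart. *Haspin*, a kinase gene on the opposite strand within the *Itgae* locus, shares 20 exon bases with it and was also called lower, from 4480 ± 482 (WT) to 2766 ± 59.1 (UTX TCD, SD, n = 3 each). Whether reads were counted by strand was not given in the sources used here.

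*Itgb7*, the beta7 chain shared by alphaE and alpha4, lies on chromosome 15 from 102215994 to 102233405. It was counted at 114173, 110752 and 126101 in WT and 86455, 93104 and 85366 in UTX TCD libraries. The groups did not overlap, but the log2 fold change of -0.40 (SE 0.06, limma adjusted p = 0.000802) was within the fold limit, so *Itgb7* was not called.

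*Itga4*, the alpha4 chain of both VLA-4 and the gut-homing receptor, lies on chromosome 2 from 79255426 to 79333114. Its counts were 92438, 107687 and 89870 in WT and 48247, 46934 and 44513 in UTX TCD libraries. All UTX TCD libraries were close to each other and below all WT libraries, at 48.2% of the WT mean and -1.05 on the log2 scale (SE 0.07, limma adjusted p = 8.48e-06). *Cerkl*, on the opposite strand, shares 166 exon bases with *Itga4* and was counted at only 344 ± 54.9 (SD, n = 3) in WT cells.

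*Itgb1*, the common VLA beta chain, lies on chromosome 8 from 128685654 to 128733579. It was counted at 24668, 25231 and 26110 in WT and 24979, 26001 and 32141 in UTX TCD libraries. The groups overlapped, and UTX TCD replicate 3 stood above the other 5 libraries. Its log2 fold change was 0.12 (SE 0.08, limma adjusted p = 0.292), and 0.01 without UTX TCD replicate 3.

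*Itga6*, a laminin receptor chain on chromosome 2 from 71786886 to 71858427, was counted at 41152, 35847 and 40731 in WT and 25497, 26201 and 24150 in UTX TCD libraries. It fell without overlap of the groups, at -0.63 on the log2 scale (SE 0.06, limma adjusted p = 6.19e-05). *Itga2*, a collagen receptor chain on chromosome 13 from 114833081 to 114932100, was low in every library. WT libraries had 129, 152 and 119 normalized counts, and UTX TCD libraries 45.0, 41.6 and 31.7, from only 20, 52 and 43 reads. The groups did not overlap. This was -1.74 on the log2 scale (SE 0.22, limma adjusted p = 0.000344). The remaining collagen chain, *Itga1*, on chromosome 13 from 114958079 to 115101964, was not tested, with 7, 14 and 2 reads in the WT libraries and 1, 1 and 4 in the others. *Itga5*, the fibronectin receptor chain, on chromosome 15 from 103344286 to 103366791, was counted at 49.1 ± 6.52 (WT) against 45.2 ± 4.49 (UTX TCD, SD, n = 3 each), within the spread of the libraries (log2 fold change -0.11, limma adjusted p = 0.74).

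*Itgav* and *Itgb3* encode the chains of a receptor for vitronectin, and alphaV also pairs with beta1. *Itgav*, on chromosome 2 from 83722303 to 83806917, was counted at 6809 ± 210 (WT) against 7028 ± 134 (UTX TCD, SD, n = 3 each), with overlapping groups (log2 fold change 0.05, limma adjusted p = 0.448). *Itgb3*, on chromosome 11 from 104608000 to 104670476, had 1430, 1489 and 1398 normalized counts in WT and 2002, 1991 and 2345 in UTX TCD libraries. It was the sole beta chain called, higher in each UTX TCD library, at 0.55 on the log2 scale (SE 0.08, limma adjusted p = 0.000697). Without UTX TCD replicate 3 the value was 0.47 and below the fold limit.

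Levels of different genes were compared as normalized count per kb of the longest curated RefSeq transcript. In WT cells *Itgb7* was highest at 43758 ± 3013 per kb (SD, n = 3), followed by *Itgae* at 16540 ± 557 per kb (SD, n = 3) and *Itga4* at 9832 ± 980 per kb (SD, n = 3). *Itga6* at 6521 ± 490 per kb (SD, n = 3) and *Itgb1* at 6041 ± 173 per kb (SD, n = 3) came next, too close to be ranked. *Itgav* at 965 ± 29.7 per kb (SD, n = 3) and *Itgb3* at 249 ± 7.97 per kb (SD, n = 3) were far lower, and *Itga2* and *Itga5* were at 18.7 and 11.0 per kb, with *Itga1* lower still. In UTX TCD cells *Itgb7* stayed first, at 33025 ± 1566 per kb (SD, n = 3). *Itgb1* was second at 6606 ± 924 per kb (SD, n = 3), ahead of *Itga4* at 4736 ± 193, *Itga6* at 4201 ± 173 and *Itgae* at 3943 ± 176 per kb (SD, n = 3 each). The UTX TCD libraries of *Itgae* and *Itga6* overlapped, so these were also too close to be ranked with this length. In UTX TCD cells *Itga6* was above *Itgae* without overlap over all exons (4086 against 2846 per kb) and on coding length (7717 against 4330 per kb). *Itgae* was thus second of the 10 chains in WT cells and below *Itgb7*, *Itgb1* and *Itga4* in UTX TCD cells. On coding length *Itga4* was second in both genotypes, ahead of *Itgae* in WT and of *Itgb1* in UTX TCD cells.

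The ratio of *Itgae* to *Itga4* per kb, the alternative alpha partners of beta7, was 1.69, 1.55 and 1.84 in WT and 0.787, 0.868 and 0.844 in UTX TCD libraries. On coding length the same ratio was 0.585 in WT and 0.288 in UTX TCD cells, so which chain was the higher in WT depends on the length used. *Itgae* and *Itga4* together came to 0.605 ± 0.0628 (WT) against 0.263 ± 0.00764 (UTX TCD, SD, n = 3 each) of *Itgb7* per kb, or 1.03 and 0.531 on coding length. The ratio of *Itga4* to *Itgb1* per kb was 1.63 ± 0.178 (WT) against 0.728 ± 0.122 (UTX TCD, SD, n = 3 each). On coding length it was 2.95 and 1.32, so whether *Itga4* passed below *Itgb1* depends on the length used. The ratio was lower in UTX TCD cells with each length. That of *Itgb7* to *Itgb1*, the competing beta partners of alpha4, was 7.24 ± 0.346 (WT) against 5.07 ± 0.789 (UTX TCD, SD, n = 3 each), 4.57 and 3.2 on coding length, and 3.39 and 2.38 over all exons. The groups did not overlap in any of these 4 ratios.

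Alpha chains were then set against their beta partners as the per-library difference of log2 values, for 8 pairs with both chains tested. For 3 libraries against 3, the exact permutation test allows no p below 0.10, so no pair could pass 0.05. For *Itgae* over *Itgb7* the log2 ratio was -0.90, -0.77 and -0.97 in WT and -2.54, -2.55 and -2.54 in UTX TCD libraries, a difference of -1.66 (SE 0.06, two-sided exact permutation p = 0.1). UTX TCD libraries were nearly identical in this ratio, and each lay below each WT library. For *Itga4* the difference was -0.65 (SE 0.14) against *Itgb7* and -1.17 (SE 0.17) against *Itgb1*, both without overlap of the groups and with an exact permutation p of 0.1. *Itga2* and *Itga6* also lay lower against *Itgb1*, by -1.86 (SE 0.29) and -0.75 (SE 0.16), each at an exact permutation p of 0.1. *Itga5* and *Itgav* overlapped between the genotypes when set against *Itgb1*, with differences of -0.23 (SE 0.21, exact permutation p = 0.4) and -0.07 (SE 0.13, exact permutation p = 1). Without UTX TCD replicate 3 these differences were -0.05 and 0.05. For *Itgav* over *Itgb3* the difference was -0.50 (SE 0.1, exact permutation p = 0.1), through the higher count of the beta chain.

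In ATAC-seq a transposase cuts accessible DNA, so reads pile up over open chromatin. The table lists peaks that passed an FDR of 0.05 between the genotypes, with the authors' log2 mean of each genotype and no value per library, so the differences below carry no spread. Distances are those of the deposited annotation, from the start of a curated transcript, whereas the gene spans above include predicted transcripts. Of the 35 peaks named for the chains, 23 were lower and 12 higher in UTX TCD cells, where 31.2% of all listed peaks were lower. All 3 *Itgae* peaks were lower and 9 of 11 *Itga4* peaks were, as were 5 of 6 for *Itgb1*, 4 of 7 for *Itga6* and 2 of 4 for *Itgb3*. The lone peaks of *Itgb7*, *Itga2*, *Itga5* and *Itgav* were all higher, and *Itga1* had none listed. Direction at the peaks and of the RNA therefore differed for *Itga2*, whose transcript fell, and for *Itgb7*, whose counts were lower in each UTX TCD library without a call. *Itgb1* had mostly lower peaks without a called change of RNA. The *Itgb7* and *Itgb1* peaks all lay outside these genes and their promoters, and are tied to them only by the annotated gene name.

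The *Itgae* promoter peak, chr11:73090339-73090739 of GRCm38, spans the start of the gene and had authors' log2 means of 9.16 in WT and 7.61 in UTX TCD cells, a difference of -1.55. An intergenic peak 4.0 kb upstream, chr11:73086350-73086750, went from 8.16 to 6.53, a difference of -1.63, and 3.17% of all listed peaks had a lower difference. Another peak, 5.0 kb upstream at chr11:73085420-73085820, differed by -0.62. No listed *Itgae* peak lay in an intron.

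*Itga4* had peaks over a much longer stretch. Its promoter peak, chr2:79255132-79255532, was the most open of the 35 in WT cells at an authors' log2 mean of 11.65, against 11.1 in UTX TCD cells. The largest difference, -1.52, was at chr2:79236988-79237388, 18.2 kb upstream in an exon of the noncoding gene *Gm35813*, where the authors' log2 means were 6.1 and 4.58. Within the gene, intron 2 of 27 held a lower peak at chr2:79266488-79266888 (-1.43) and a higher one at chr2:79269988-79270388 (0.42). Further upstream, peaks 24.2 and 27.6 kb from the start (chr2:79231003-79231403 and chr2:79227674-79228074) differed by -0.36 and -1.08. The peak 63.3 kb upstream (chr2:79191934-79192334) differed by -1.12, and the one 74.4 kb upstream (chr2:79180861-79181261) was higher by 0.49. The 3 most distant, 129.0, 131.0 and 143.3 kb upstream (chr2:79126187-79126587, chr2:79124225-79124625 and chr2:79111935-79112335), differed by -0.89, -0.86 and -0.61.

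At the beta chains, the *Itgb7* peak, chr15:102237118-102237518, lay in an intron of the neighbouring gene *Rarg*, 5.4 kb upstream of the curated *Itgb7* transcript and 3.9 kb outside the gene span, and was higher by 0.33. All 6 *Itgb1* peaks were intergenic and between 30.9 and 122.4 kb upstream. The largest difference, -1.48, was at chr8:128563097-128563497, a weakly open peak. Peaks at chr8:128654537-128654937, chr8:128652784-128653184, chr8:128637314-128637714 and chr8:128594993-128595393 differed by -0.77, -0.67, -0.46 and -0.44, and chr8:128645474-128645874 was higher by 0.69. *Itgb3* peaks were all intronic. The one in intron 1 of 14, chr11:104609421-104609821, was higher by 1.07 and that in intron 12, chr11:104661108-104661508, by 0.47, while peaks in introns 10 and 13, chr11:104646572-104646972 and chr11:104662565-104662965, differed by -0.82 and -0.76.

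Among the remaining alpha chains, *Itga6* had 4 lower peaks in intron 1 of 25, of which chr2:71794770-71795170 differed most (-1.37) and chr2:71792680-71793080, chr2:71793391-71793791 and chr2:71810008-71810408 differed by -0.72, -0.53 and -0.34. Its higher peaks were chr2:71816269-71816669, listed in the same intron but reaching into an exon (0.27), and chr2:71780758-71781158 and chr2:71758654-71759054 upstream (0.80 and 0.65). The *Itgav* peak, chr2:83695430-83695830, lay 28.8 kb upstream of the curated transcript and 26.7 kb outside the gene span. It was higher in UTX TCD cells, from 6.32 to 7.82 in the authors' log2 means. Peaks in intron 3 of 29 of *Itga2* (chr13:114885258-114885658) and intron 1 of 30 of *Itga5* (chr15:103365790-103366190) were higher by 0.80 and 0.94.

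The central 300 bases of the *Itga4* peak with the largest difference are printed from the GRCm38 reference (C57BL/6J, not NOD), plus strand, with matches to the searched motifs in capitals. Motifs were RUNX (TGTGGT), TCF/LEF (CTTTGA), SMAD (CAGACA) and STAT (TTCNNNGAA), searched on both strands.
*Itga4* peak, chr2:79237039-79237338: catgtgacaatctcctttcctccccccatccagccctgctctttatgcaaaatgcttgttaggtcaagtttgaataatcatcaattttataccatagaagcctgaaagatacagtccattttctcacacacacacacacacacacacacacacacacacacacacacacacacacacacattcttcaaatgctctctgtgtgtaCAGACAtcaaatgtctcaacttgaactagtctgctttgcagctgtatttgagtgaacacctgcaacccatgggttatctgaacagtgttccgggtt
It holds 1 SMAD match, at chr2:79237243-79237248, and 0 matches to the other 3 motifs. The sequence also holds a long run of ca repeats just before its match. The SMAD letters occurred in the central 300 bases of 28.2% of the 23908 listed peaks that lie on assembled chromosomes, and in 14 of the 35 peaks of the chains. RUNX letters occurred in 34.4% of listed peaks and 8 of the 35, TCF/LEF letters in 25.1% and 9 of the 35, and STAT letters in 8.82% and 9 of the 35. As 23 of the 35 peaks were lower, the shares by direction matter too. Among all lower and all higher listed peaks, RUNX letters occurred in 43.4% and 30.3%, TCF/LEF letters in 26.4% and 24.5%, SMAD letters in 31.5% and 26.7%, and STAT letters in 8.84% and 8.81%. The *Itgb7* peak held 2 TCF/LEF matches, and the *Itgae* promoter peak 1 RUNX match. Of the other *Itgae* peaks, the one 4.0 kb upstream held 1 SMAD match, and the one 5.0 kb upstream 1 SMAD and 1 TCF/LEF match.

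Among 16 other integrin chains, 12 were tested, of which 4 were called lower and 0 higher by limma, with 3 more at an adjusted p under 0.05. Of all genes tested, 7.05% were called lower, 10.5% higher and 40.7% had such an adjusted p. The 4 were alpha chains at low counts. *Itgam*, the alpha chain of Mac-1, was at 449 ± 13.1 (WT) against 75.8 ± 14.0 (UTX TCD, SD, n = 3 each), and *Itga7*, a laminin receptor chain, at 377 ± 75.0 (WT) against 34.1 ± 12.2 (UTX TCD, SD, n = 3 each). *Itgad* and *Itgax*, both partners of the beta2 chain, fell to 1.98 ± 1.86 and 1.47 ± 2.55 (SD, n = 3 each), from 56.2 ± 14.0 and 43.0 ± 16.2. *Itgal*, the LFA-1 alpha chain and the most abundant, was not called, at 124075 ± 2346 (WT) against 111837 ± 1496 (UTX TCD, SD, n = 3 each). The median log2 fold change of the 12 was -0.21.

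Of 40 genes for integrin activation and adhesion, 34 were tested, with 4 called higher and 1 lower, and 23 had an adjusted p under 0.05. These 5 of 34 compare with 17.6% of all genes tested, and the 23 with 40.7%. Most of the 23 were lower in UTX TCD cells, unlike most of the 5 called. *Cd81*, a tetraspanin, rose most, from 1140 ± 26.4 (WT) to 4442 ± 358 (UTX TCD, SD, n = 3 each), 1.96 on the log2 scale (limma adjusted p = 2.24e-07). *Ptk2*, which encodes focal adhesion kinase, rose by 1.25 on the log2 scale. *Tln2* and *Itgb1bp2* were called higher at 0.83 and 0.71, at 223 ± 57.4 and 296 ± 71.7 normalized counts in UTX TCD cells (SD, n = 3 each). The *Tln2* call was lost without UTX TCD replicate 2 (0.64, limma adjusted p = 0.059) and the *Itgb1bp2* call without WT replicate 1 or 3 or UTX TCD replicate 1 or 2. The *Itgb1bp2* call was also lost in both versions of the fit without a variance trend, an option taken after the data were seen. *Flna*, the actin crosslinker filamin A, fell from 220849 ± 30277 (WT) to 143489 ± 9035 (UTX TCD, SD, n = 3 each), a log2 fold change of -0.61. *Tln1*, the abundant talin that activates integrins, was the most abundant gene not called, at 153525 ± 13920 (WT) against 150961 ± 8011 (UTX TCD, SD, n = 3 each). The median log2 fold change of the 34 was -0.18.

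Ligands of the chains were mostly low, and 8 of 16 were tested. *Lama5* and *Lamc1*, laminin chains, were called higher at log2 fold changes of 1.38 and 0.79. *Cdh1*, which encodes the alphaE ligand E-cadherin, was called lower, from 181 ± 23.6 (WT) to 45.0 ± 17.5 (UTX TCD, SD, n = 3 each). *Tgfb1*, whose product induces *Itgae* in T cells, was counted at 18616 ± 1206 (WT) against 18255 ± 380 (UTX TCD, SD, n = 3 each) and not called. Median log2 fold change over the 8 was 0.15, and 3 of 8 were called, against 17.6% of all genes tested. Of 16 textbook regulators of *Itgae*, 15 were listed and tested, with 2 called higher and 0 lower, and 10 at an adjusted p under 0.05 from limma, against 10.5%, 7.05% and 40.7% of all genes tested. *Tbx21*, which encodes T-bet, rose from 704 ± 152 (WT) to 1565 ± 266 (UTX TCD, SD, n = 3 each), and its close relative *Eomes* from 13954 ± 1183 (WT) to 21671 ± 4466 (UTX TCD, SD, n = 3 each). The *Eomes* log2 fold change of 0.62 was 0.46, under the fold limit, without UTX TCD replicate 3. *Tgfbr2*, a TGF-β receptor chain, was the most abundant not called, at 82285 ± 2550 (WT) against 93027 ± 4486 (UTX TCD, SD, n = 3 each). It was higher in UTX TCD libraries without overlap, at 0.18 on the log2 scale (SE 0.05, limma adjusted p = 0.0208), within the fold limit. The 10 regulators at an adjusted p under 0.05 included both lower and higher genes.

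Over the 6 libraries on log2(normalized count + 1), the genes most like *Itgae* were *Dnajc9*, *Zfp629*, *Arhgap23*, *Cd7* and *Abtb3*, with Pearson's r from 0.9987 to 0.9996. Those most like *Itga4* were *Atg14*, *Nsmce4a*, *Plekho1*, *Sf3b1* and *Cyria*, with r from 0.9985 to 0.9994. All 10 were lower in UTX TCD libraries, which follows from choosing genes like 2 chains that were lower there. Their log2 fold changes ran from -3.3 for *Arhgap23* to -0.24 for *Sf3b1*. The 6 libraries fall into 2 genotypes, and 463 and 207 genes had an r over 0.98 with *Itgae* and *Itga4*.

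Markers of other states and cell types were read for the same libraries, and their part in the integrin results was not tested. In the progenitor list, 2 of 7 genes were called lower and 0 higher by limma, with 3 at an adjusted p under 0.05. For this and the marker lists below, 7.05% of all genes tested were called lower, 10.5% higher and 40.7% had such an adjusted p. *Cxcr6*, a gate marker in the labels, was at 12033 ± 2146 (WT) against 5658 ± 355 (UTX TCD, SD, n = 3 each), and *Havcr2*, an exhaustion marker at low counts, had a log2 fold change of -2.23. *Cd44*, not called, was higher at 0.17 on the log2 scale (limma adjusted p = 0.0322). Of the other gate genes, *Slamf6*, which encodes Ly108, differed by 0.29 (limma adjusted p = 0.089). *Entpd1*, which encodes CD39, was at 17.3 ± 10.7 (WT) against 7.24 ± 4.82 (UTX TCD, SD, n = 3 each), -1.15 on the log2 scale (limma adjusted p = 0.131). Neither was called, and the groups overlapped for both. The list, led by *Tcf7*, summed to 534871, 515490 and 493919 in WT and 506907, 476949 and 491937 in UTX TCD libraries. Of 5 B cell markers, 4 were tested, *Cd79b* was called lower and *Ms4a1* higher, and the list, led by *Cd79b*, summed to 2951, 2437 and 2800 in WT and 1221, 1082 and 1000 in UTX TCD libraries. *Cd79a* was at 388 ± 92.8 (WT) against 438 ± 78.1 (UTX TCD, SD, n = 3 each). *Sdc1* and *Jchain*, the plasma cell markers and led by *Jchain*, were both called higher and summed to 24.8, 40.5 and 16.0 in WT and 60.7, 53.7 and 108 in UTX TCD libraries. In the CD4 T cell list, *Cd4* and *Zbtb7b* of 4 genes were called lower, and the sums, led by *Foxp3*, were 518, 413 and 490 in WT and 391, 382 and 369 in UTX TCD libraries. The calls of *Ms4a1*, *Sdc1*, *Jchain* and *Cd4*, all at low counts, were each lost when certain single libraries were left out. Those of *Ms4a1* and *Jchain* were also lost without the variance trend, those of *Cd4* and *Jchain* with no filter on low values, those of *Cd4* and *Sdc1* with DESeq2, that of *Cd4* with libraries scaled to the same sum, and that of *Jchain* with a replicate block.

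Dendritic cells, some of which carry CD103, had *Itgax* called lower among 3 of 5 markers tested, and the list, led by *Xcr1*, summed to 263, 197 and 243 in WT and 214, 220 and 254 in UTX TCD libraries. Macrophage and monocyte markers, led by *Cd68*, had *Csf1r* called lower among 3 of 5 tested and sums of 776, 789 and 612 in WT and 1035, 786 and 966 in UTX TCD libraries. For NK cells, 2 of 3 markers were tested and 0 called by limma, *Tyrobp* was the most abundant, and sums were 190, 214 and 134 against 162, 107 and 121. Platelet markers, of interest because platelets carry beta3 and alpha2, had 1 of 5 tested and 0 called by limma, with *Ppbp* and *Gp1bb* at 0 in every library, and *Itga2b* made up most of their sums of 404, 420 and 384 in WT and 454, 380 and 370 in UTX TCD libraries. Endothelial markers summed to 25.8, 22.7 and 13.0 in WT and 2.25, 4.8 and 2.95 in UTX TCD libraries, with *Cdh5* leading, *Emcn* at 0 in every library and 0 of 4 tested. For fibroblastic stroma 4 of 5 markers were tested and 0 called by limma, and sums led by *Col1a1* were 954, 563 and 1010 in WT and 1077, 1026 and 1020 in UTX TCD libraries. *Epcam* was called higher and *Cdh1* lower among 4 epithelial markers, of which 2 were tested and *Epcam* was the most abundant, and which summed to 568, 552 and 560 in WT and 819, 667 and 839 in UTX TCD libraries. Of all genes tested, 7.05% were called lower and 10.5% higher.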

How the data were processed

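RNA reads passed through FastQC, HISAT2 2.2.1 (mm10) and featureCounts, and the deposited signal is what the authors obtained after dividing by DESeq2 size factors. The annotation and strand setting are not given in the sources used here. NOD reads were aligned to a C57BL/6J reference, so NOD variants can lower counts and peaks in both genotypes. For ATAC-seq the authors aligned reads with Bowtie2, called peaks with MACS2, compared genotypes with DiffBind and named genes with HOMER. The authors' log2 group means were used from that table. Deposited fold changes and p-values of both tables were not used, except that the FDR column was read for its highest value.

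Genotype and replicate came from the labels. The test was limma 3.58.1 (R 4.3.3) on log2(value + 1) for genes with a mean of at least 10, with genotype as the only term. The fit had a variance trend. This option was not settled in the planned design: 4 versions, with and without a trend and robust estimation, were run on these data and called between 2399 and 2538 genes. The trend was then taken because it returned the number of called genes known from an earlier analysis of these data, so its adjusted p-values, smaller for *Itgae* than without a trend (1.88e-08 against 5.62e-05 from limma), were not chosen blind. Whole reads were recovered for 100% of values (relative tolerance 0.001), and count tests on them with edgeR 4.0.16 and DESeq2 1.42.0 called 2541 and 2422 genes against 2538. The planned Benjamini-Hochberg adjustment over the pairs of chains is not printed, because the chains were chosen with results known. No libraries of a genotype were copies, with a chi-square per gene of 12.6 to 110.2. Transcript lengths, positions and sequence came from RefSeq on GRCm38, the same assembly as mm10. The limma step was tested on simulated reads.

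Members and lists were chosen with earlier results of these data known. Named genes followed a rule: every chain, its listed peaks, from each list the called genes with the largest absolute log2 fold change (at most 4 in each direction) and the most abundant gene not called, and the 5 genes most like *Itgae* and *Itga4*. Values of other genes, such as *Haspin*, *Cerkl* and single markers, were added after they were seen. Alternatives covered pseudocount, filter, scaling, test, replicate block, fold limit, length, peak limits and each library left out. The 3 other versions of the variance were added after seeing the data.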

Additional observations from a re-analysis of the deposited data

How the results depend on the processing

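Under 20 alternatives, *Itgae*, *Itga4*, *Itga2* and *Itga6* stayed called lower in each, with log2 fold changes of -2.11 to -2.01, -1.1 to -0.97, -1.84 to -1.59 and -0.7 to -0.57. *Itgb3* was lost with an absolute fold change over 1.5 (0.55) and without UTX TCD replicate 3 (0.47), so 4 to 6 chains were called. *Itgb7* was called with no fold limit, which called 5887 genes in place of 2538. Without each library in turn, 2164 to 2570 genes and 4 to 5 chains were called. With the replicate block, 2474 genes and the same 5 chains were called. Same-numbered libraries deviated together with r of 0.31, -0.2 and 0.09, not each best with its own number. These values show no pairing by number, but they cannot show that same-numbered samples were unrelated. The versions of the variance, chosen after seeing the data, called 2445 genes without a trend, 2399 without a trend but robust and 2538 with a trend and robust, each with the same 5 chains. With no filter on low values *Itga1* had a log2 fold change of -1.23 (adjusted p = 0.224 from limma). Adhesion genes called numbered 3 to 6 with a library left out, 3 of them without UTX TCD replicate 2.

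The *Itgav* over *Itgb1* difference ran from -0.14 without UTX TCD replicate 1 to 0.05 without UTX TCD replicate 3, and the cause was not tested. *Itga5* over *Itgb1* ran from -0.37 to -0.05. All pairs except *Itgav* over *Itgb1* kept their direction in all 9 alternatives run for pairs. Lower peaks numbered 9 and higher ones 6 inside the gene or at its promoter, where 26.6% of all listed peaks so placed for their named gene were lower, and by construction fewer than in the full list. At an absolute difference over 0.5, 19 were lower and 7 higher, where 32.5% of all listed peaks past that limit were lower. Within 50 kb of the start, 16 were lower and 10 higher, where 29.4% of all listed peaks within it were lower. These shares were computed after seeing the data. Levels per kb move with length by construction. Over all exons WT levels were 11939 for *Itgae*, 20499 for *Itgb7*, 744 for *Itgav* and 241 for *Itgb3*, and UTX TCD levels 2846, 15471 and 768 for the first 3. On coding length WT and UTX TCD levels were 18163 and 4330 for *Itgae*, 48331 and 36476 for *Itgb7*, 31192 and 15026 for *Itga4*, 10570 and 11559 for *Itgb1*, 37.7 and 11.2 for *Itga2*, 15.5 and 14.3 for *Itga5*, 11979 and 7717 for *Itga6*, 2172 and 2242 for *Itgav* and 609 and 894 for *Itgb3*, and 0.565 in UTX TCD cells for *Itga1*. *Itga1*, with 1 to 14 reads per library, lies near the limit set by depth. There 3 reads equal 2.21 to 6.75 normalized counts per library, a limit that covers counting error only.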
